A study of Mus musculus with 31 samples.

Results

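The semaphorins, plexins and neuropilins were examined in mouse iPSCs (induced pluripotent stem cells, made by returning body cells to an embryo-like state), and in the embryoid bodies grown from them. Members were all genes whose platform symbol is Sema with a class number from 3 to 7 and a letter, Plxn with a letter and a number, or Nrp1 or Nrp2, on probe sets that name 1 gene. The rule found 31 genes among 18194 measured: 20 semaphorins, 9 plexins and 2 neuropilins. They carry 78 probe sets, and 25 of the 31 have more than 1. Where a gene has several, the one with the highest average level stands for it.

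Semaphorins are guidance signals that steer growing axons, endothelial cells and neural crest cells, mostly by repulsion. Class 3 semaphorins are secreted and generally bind a neuropilin that forms a receptor with a class A plexin, whereas the other vertebrate classes are tied to the membrane and mostly bind plexins directly. Plexins pass the signal to small GTPases inside the cell, and neuropilins also serve as co-receptors for vascular endothelial growth factors. In the embryo, Sema3c with its receptors is known for its part in dividing the outflow tract of the heart, and Plxnd1 for the patterning of vessels.

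The study compared 4 groups with 1 Affymetrix array per sample. Control cells came from wild type CD1 mice and the other cells from Nos3-/- mice of the strain B6.129P2-Nos3tm1unc/J, which lack endothelial nitric oxide synthase, and all were reprogrammed with Sendai virus, the starting cells being fibroblasts from the tail tips of adult males. At day 0, iPSCs on inactive mouse embryonic fibroblast feeders gave 10 control and 6 Nos3-/- arrays. At day 11, embryoid bodies formed in microwells and left to differentiate spontaneously gave 9 control and 6 Nos3-/- arrays. Genotype goes with strain throughout, so that the 2 cannot be told apart in any genotype difference below. The labels do not say which arrays come from separate lines, clones or cultures, so the p-values rest on array-to-array spread that may be technical. Levels are log2 intensities, on which a difference of 1 is a 2-fold change. Genes with an adjusted p under 0.05 (limma, Benjamini-Hochberg over all 18194 genes) are said to pass. A ± on a level is the SD between arrays, and a ± on a change is the standard error (SE) of the fit.

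The cultures were set against marker lists of the cells they could hold. The mean level of 20 pluripotency markers was 10.22 ± 0.46 in control and 10.88 ± 0.90 in Nos3-/- arrays at day 0, and 9.68 ± 0.39 and 10.22 ± 0.90 at day 11. Of the 20, 6 fell and 1 rose in control, and 3 fell and 0 rose in Nos3-/-. Of all genes, 18.2% and 18.1% fell. Of 20 cardiomyocyte markers, 17 rose to day 11 in control and 13 in Nos3-/-, against 16.0% and 13.0% of all genes. The mean of 24 fibroblast and feeder markers was 10.66 ± 0.39 in control and 9.99 ± 0.41 in Nos3-/- at day 0, and 9.61 ± 0.46 and 8.59 ± 0.34 at day 11. The mean of 18 visceral endoderm markers was 9.64 ± 1.40 in control and 7.74 ± 0.73 in Nos3-/- arrays at day 11. Both Nos3-/- arrays numbered 3 stood apart. The day 0 one had a pluripotency mean of 9.07 where the other Nos3-/- iPSC arrays had 11.01 to 11.44, and the day 11 one had the lowest cardiomyocyte mean, 5.88, and endothelial mean, 6.21, of its group, and the lowest median correlation with its group, 0.961, of all 31 arrays. For members whose call changes without these 2 arrays, the call is given with and without them. For Nos3 itself, the level was 6.65 ± 0.24 in control and 6.98 ± 0.18 in Nos3-/- iPSCs and 7.05 ± 0.21 and 6.88 ± 0.14 in embryoid bodies. The sources used here do not place its probe set inside or outside the deletion, and its levels therefore test nothing about the allele. In whole cultures, fewer cells of a type and less RNA per cell cannot be told apart.

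Besides Sema4d, the members that passed between genotypes at day 11 were the ligands Sema3c and Sema3d and the receptors Nrp1 and Nrp2. The 250 bases before a transcript start of each, as the RefSeq promoter table places it, are shown because these 4 members had the largest genotype differences at day 11, a choice made after their values were seen. Sequences are from RefSeq on assembly GRCm38.p6, 5′ to 3′ on the gene's strand. The windows of Sema3c and Nrp2 end just before the first base of the gene in the RefSeq gene table. That of Sema3d runs past this base, 12383161, by a few bases, and that of Nrp1 lies wholly inside the gene as listed, whose first base is 128358591. Capitals mark the GC box GGGCGG and the CCAAT box in its CCAAT letters, each searched on both strands. The TATA box TATAAA and the E-box CACGTG were also searched on both strands and occur in none of the 4 windows.
Sema3c (chr5:17574566-17574815, plus strand): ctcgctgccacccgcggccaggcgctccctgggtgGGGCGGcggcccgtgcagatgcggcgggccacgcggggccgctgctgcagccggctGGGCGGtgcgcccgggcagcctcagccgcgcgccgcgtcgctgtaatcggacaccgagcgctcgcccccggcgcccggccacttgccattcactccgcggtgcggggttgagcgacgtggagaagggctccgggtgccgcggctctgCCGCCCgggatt
Sema3d (chr5:12382916-12383165, plus strand): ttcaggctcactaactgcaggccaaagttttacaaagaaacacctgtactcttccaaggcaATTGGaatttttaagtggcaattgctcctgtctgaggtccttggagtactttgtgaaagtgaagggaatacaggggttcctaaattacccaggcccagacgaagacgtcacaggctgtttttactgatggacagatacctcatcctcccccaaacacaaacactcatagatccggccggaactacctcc
Nrp1 (chr8:128358823-128359072, plus strand): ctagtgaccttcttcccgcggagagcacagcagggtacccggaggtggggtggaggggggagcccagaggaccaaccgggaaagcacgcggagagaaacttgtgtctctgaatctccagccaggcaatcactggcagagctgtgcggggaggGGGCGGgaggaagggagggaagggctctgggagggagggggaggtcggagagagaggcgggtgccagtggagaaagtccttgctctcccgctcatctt
Nrp2 (chr1:62703067-62703316, plus strand): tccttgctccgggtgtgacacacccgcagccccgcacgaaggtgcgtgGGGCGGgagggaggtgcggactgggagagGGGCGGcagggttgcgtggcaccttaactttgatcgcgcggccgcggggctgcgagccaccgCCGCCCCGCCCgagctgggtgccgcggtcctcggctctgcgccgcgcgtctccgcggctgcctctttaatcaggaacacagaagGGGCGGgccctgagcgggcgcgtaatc
The Sema3c window holds 39 CpG sites and 3 GC boxes, and that of Nrp2 holds 32 CpG sites and 5 GC boxes, 2 of which overlap by 1 base on the reverse strand. The Nrp1 window holds 11 CpG sites and 1 GC box. The Sema3d window differs, with 4 CpG sites, 46.8% G and C, no GC box and 1 CCAAT box. Over all 32851 promoter windows of this length in the RefSeq table the median was 6 CpG sites, and 32.7% held the GC box, 33.8% the CCAAT box, 12.4% the TATA box and 6.02% the E-box. These are descriptions of letters, and binding was not measured. Of the 31 members, 26 had a promoter in the table.

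Across the 5 comparisons, 21 of the 31 members passed at least once and 10 passed in none: Sema3a, Sema3e, Sema4a, Sema4b, Sema6b, Sema6c, Plxna3, Plxna4, Plxnb3 and Plxnc1. Between genotypes at day 0, 5 of 31 members passed (16.1%), all 5 lower in Nos3-/-, against 16.6% of all genes, of which 9.17% were higher and 7.47% lower, so the share of members is that of the background. At day 11, 5 members passed (16.1%), 3 higher and 2 lower in Nos3-/-, against 9.70% of all genes with 4.41% higher and 5.29% lower. From day 0 to day 11, 14 members passed in control (45.2%), 9 higher and 5 lower, against 34.2% of all genes with 16.0% higher and 18.2% lower. In Nos3-/- cells, 14 members also passed over time (45.2%), 13 higher and 1 lower, against 31.1% of all genes with 13.0% higher and 18.1% lower. The difference between genotypes in the change over time passed for 2 members (6.45%), both higher, against 1.24% of all genes with 0.522% higher and 0.715% lower. None of these shares was tested against the background.

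Some members were separated without overlap between the arrays of the groups compared. At day 0 no member was, against 1.92% of all genes. At day 11 the genotypes did not overlap for 2 members, Sema3c and Nrp2, against 2.60% of all genes. Over time 1 member, Sema7a, did not overlap in control, against 6.52% of all genes, and 6 did not in Nos3-/-, against 7.83%. The median change of the members was -0.24 at day 0 and 0.06 at day 11 between genotypes, 0.04 over time in control and 0.33 over time in Nos3-/-, where the medians of all genes were 0.01, 0.00, -0.03 and -0.06. The day 0 genotype comparison shares its arrays with both comparisons over time, so the values below stand side by side and are not independent of each other.

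**Figure D1:**
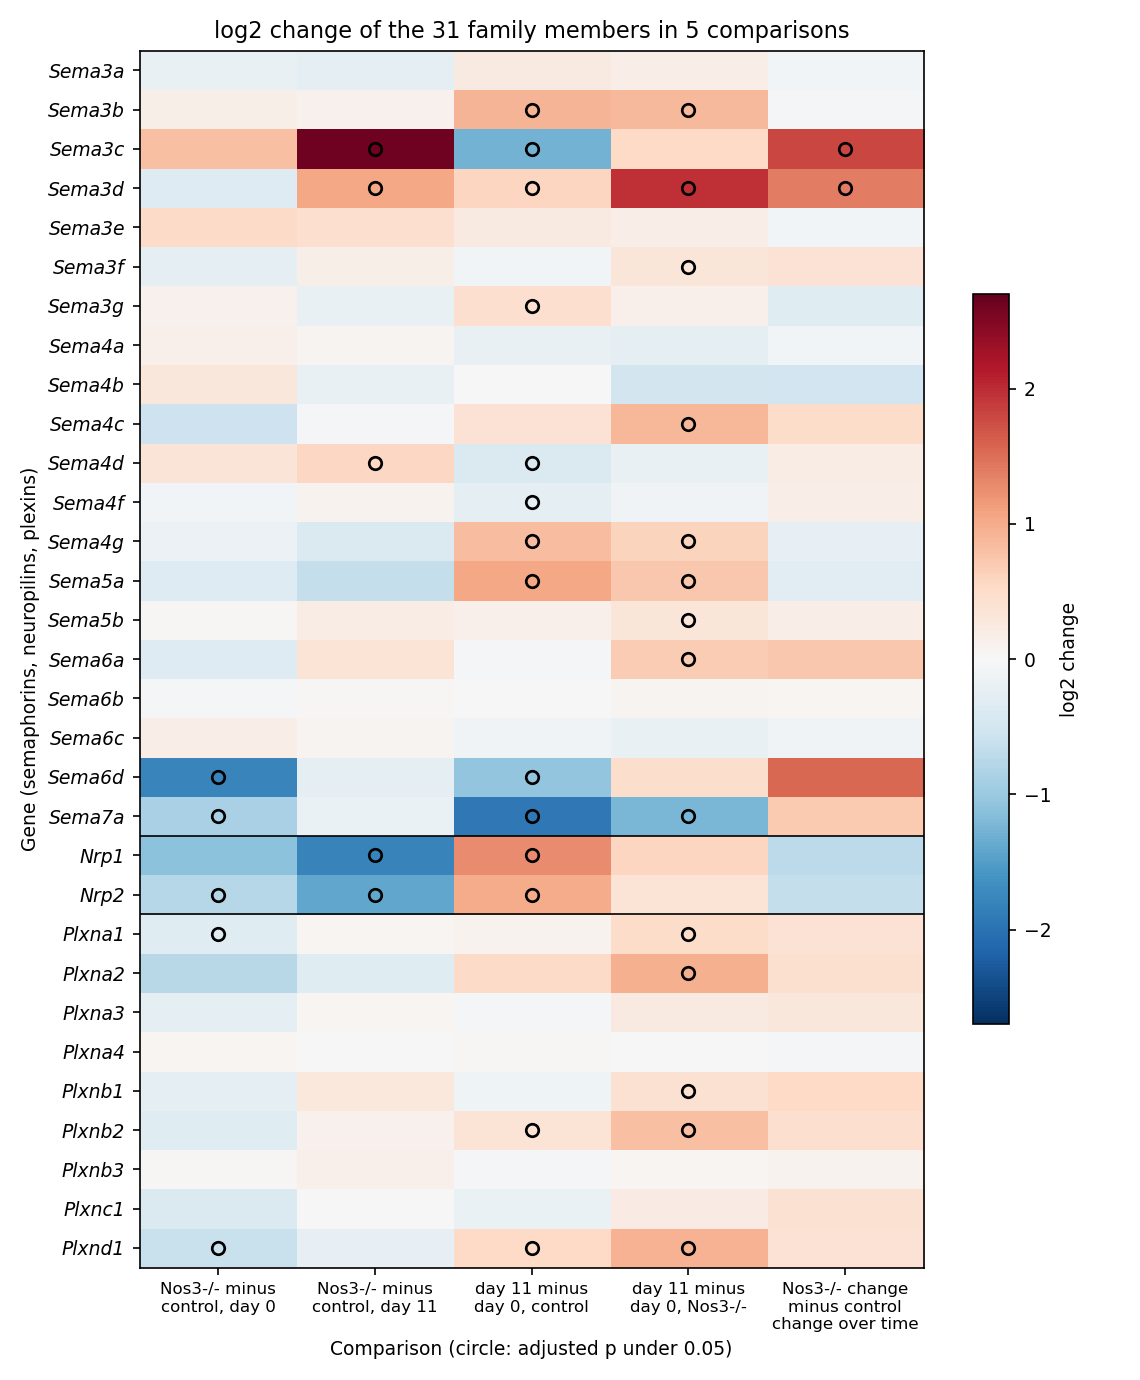
log2 change of the 31 members (rows, ordered as semaphorins, neuropilins and plexins) in the 5 comparisons (columns); colour gives the change and a circle marks an adjusted p under 0.05. Between genotypes all 5 circles at day 0 lie on lower values, and at day 11 the circles lie on Sema3c, Sema3d and Sema4d, which were higher in Nos3-/-, and on Nrp1 and Nrp2, which were lower.

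Among the secreted class 3 ligands, 2 of 7 were higher in Nos3-/- than in control embryoid bodies, and none of the 7 passed between genotypes at day 0. Sema3c, a ligand known to attract neural crest and endothelial cells in the outflow tract, had the largest genotype difference of the family at day 11. Its level ran from 6.93 to 8.40 with a median of 7.66 in control embryoid bodies and from 9.63 to 10.87 with a median of 10.27 in Nos3-/- embryoid bodies. All 6 Nos3-/- arrays lay above all 9 control arrays. The difference was 2.63 ± 0.32, or 6.17-fold (adjusted p = 1.03e-06, limma), and it passed in all 31 omissions of a single array, with a range of 2.50 to 2.75. It was 3.13 (adjusted p = 0.000276) with the fibroblast and feeder mean as a covariate and 2.76 (adjusted p = 0.000139) with the visceral endoderm mean. The second Sema3c probe set gave 1.38 in the same direction.

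At day 0 the Sema3c level ran from 8.04 to 10.04 with a median of 8.86 in control and from 8.71 to 11.28 with a median of 9.36 in Nos3-/- iPSCs. The groups overlapped, with Nos3-/- replicates 5 and 6 at 10.68 and 11.28 above every control array. The difference of 0.82 ± 0.32 did not pass (adjusted p = 0.0702), and passed at 0.90 (adjusted p = 0.0471) without both Nos3-/- arrays numbered 3. Over time Sema3c fell by 1.28 ± 0.28 on the log2 scale in control (adjusted p = 0.000688), while in Nos3-/- its change was 0.53 ± 0.35 (adjusted p = 0.268). The difference between these changes was 1.80 ± 0.45 (adjusted p = 0.0418), which was lost in 17 of the 31 omissions of a single array, with adjusted p from 0.0122 to 0.0885, and when the mean of both probe sets was used (1.15). Ordered by mean, the levels were 7.62 in control embryoid bodies, 8.90 in control iPSCs, 9.72 in Nos3-/- iPSCs and 10.25 in Nos3-/- embryoid bodies, and of the neighbours in this order only the lowest pair differed beyond the threshold.

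Sema3d, a ligand with known roles in neural crest and in the forming pulmonary veins, was dim in all 4 groups and rose with differentiation. Its group means, at most 5.81, all lay under the lower tertile of mean level over all genes, 6.03. Its level ran from 3.88 to 4.56 with a median of 4.10 in control and from 3.53 to 4.09 with a median of 3.87 in Nos3-/- iPSCs. In embryoid bodies it ran from 4.13 to 5.35 with a median of 4.76 in control and from 4.91 to 6.99 with a median of 5.83 in Nos3-/-. Of the 6 Nos3-/- embryoid body arrays, 4 lay above every control array, and the other two, 5.04 and 4.91, lay within the control range. Over time it rose by 0.59 ± 0.20 in control (adjusted p = 0.0204) and by 1.97 ± 0.25, or 3.92-fold, in Nos3-/- (adjusted p = 1.54e-06), where no day 11 array overlapped with day 0. The genotype difference at day 11 was 1.04 ± 0.23 (adjusted p = 0.00250) and that of the changes over time was 1.38 ± 0.32 (adjusted p = 0.0267). Without both Nos3-/- arrays numbered 3, these were 0.80 (adjusted p = 0.00855) and 1.18 (adjusted p = 0.0151). The day 11 difference did not pass with the visceral endoderm mean as a covariate (0.95, adjusted p = 0.237) and passed with the fibroblast and feeder mean (1.78, adjusted p = 0.0461). The day 11 difference without a covariate passed in all 31 omissions of a single array, with an adjusted p of at most 0.0110. The call on the difference of the changes was lost without Nos3-/- day 0 replicate 2 or 5 or Nos3-/- day 11 replicate 1. Its adjusted p was at most 0.0605 in the omissions. The second, dimmer Sema3d probe set gave 0.39 between genotypes at day 11, and -0.06 in control and 0.29 in Nos3-/- over time. With both probe sets averaged the rise in control was 0.27 and did not pass (adjusted p = 0.0804).

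The other 5 class 3 ligands did not pass between genotypes on either day. Sema3b, known as a repellent and as a gene often lost in tumours, rose in both genotypes, by 0.91 ± 0.18 in control (adjusted p = 0.000224) and by 0.87 ± 0.23 in Nos3-/- (adjusted p = 0.00464), from means of 6.06 and 6.21 at day 0. In Nos3-/- no day 11 array of Sema3b overlapped with day 0. The other Sema3b probe sets rose less, by 0.07 and 0.63 in control and by 0.18 and 0.26 in Nos3-/-. Sema3g, a ligand found in endothelium, rose by 0.46 ± 0.13 in control (adjusted p = 0.00672) with a change of 0.14 ± 0.16 in Nos3-/- that did not pass (adjusted p = 0.562). It was dim in all 4 groups, with means from 4.64 to 5.11. Sema3f, a repellent that acts through Nrp2, rose by 0.33 ± 0.11 in Nos3-/- (adjusted p = 0.0226), a call that was lost without Nos3-/- day 0 replicate 4 or 6 or without Nos3-/- day 11 replicate 6. It was also lost when only the arrays of the groups compared were fitted. Leaving out probe sets with suffixes _x_at and _s_at, the one used for Sema3f being an _x_at, ended it too. The other Sema3f probe sets gave 0.20 and 0.66 over time in Nos3-/-. Between genotypes at day 0 the Sema3f difference of -0.24 ± 0.10 did not pass (adjusted p = 0.0919). It passed at -0.26 (adjusted p = 0.0188) when the Sema3f probe sets were averaged. Sema3e, a ligand that binds Plxnd1 without a neuropilin, was higher in the Nos3-/- mean on both days, by 0.52 ± 0.33 and 0.45 ± 0.34, without passing (adjusted p = 0.306 and 0.503). Its 4 probe sets gave differences of 0.31 to 0.60 at day 0 and 0.26 to 0.56 at day 11. Sema3a, the classic axon repellent that acts through Nrp1, had mean levels between 7.03 and 7.46 in the 4 groups and passed in no comparison.

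Both neuropilins were lower in Nos3-/- embryoid bodies. For Nrp1, which binds Sema3a and the growth factor VEGF-A, the level at day 11 ran from 9.63 to 12.10 with a median of 11.47 in control and from 7.20 to 10.80 with a median of 10.11 in Nos3-/-. Control replicate 1, at 9.63, was the only control array that lay among the Nos3-/- arrays, since the other 8 lay at 11.20 or above. The difference was -1.81 ± 0.45, or 3.50-fold lower (adjusted p = 0.00703), and -1.32 (adjusted p = 0.0185) without both Nos3-/- arrays numbered 3, the lowest value, 7.20, being one of them. For Nrp2, which binds Sema3c, Sema3f and VEGF-C, the level ran from 9.39 to 10.78 with a median of 10.20 in control and from 7.93 to 9.23 with a median of 8.80 in Nos3-/-. No Nos3-/- array reached the lowest control array. This difference was -1.41 ± 0.28, or 2.66-fold lower (adjusted p = 0.000831).

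All 4 probe sets of Nrp1 gave lower means in Nos3-/- embryoid bodies, by -0.82 to -1.81, and so did the 4 of Nrp2, by -0.72 to -1.41. Both differences passed in all 31 omissions of a single array. With the fibroblast and feeder mean as a covariate among day 11 arrays, an alternative chosen after seeing the data, they were -0.82 for Nrp1 (adjusted p = 0.688) and -0.91 for Nrp2 (adjusted p = 0.268). With the visceral endoderm mean as the covariate, they were -1.33 (adjusted p = 0.325) and -1.43 (adjusted p = 0.0214). Of the fibroblast and feeder markers 10 of 24 were lower and 1 was higher in Nos3-/- embryoid bodies, with a median change of -0.79, and their mean ran from 8.78 to 10.21 in control and from 8.23 to 9.15 in Nos3-/-. The part of these cells in the neuropilin difference was not tested.

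**Figure D2:**
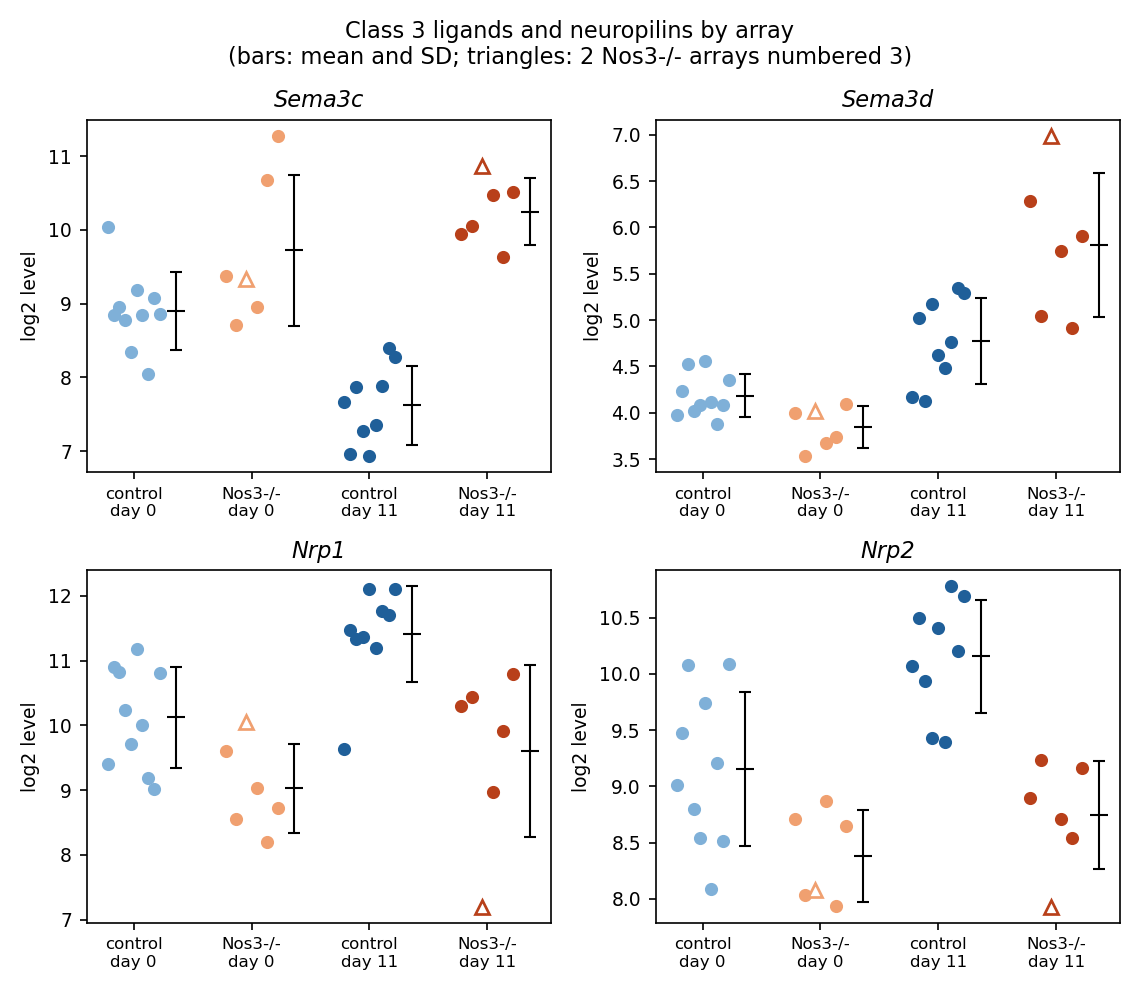
log2 level of Sema3c, Sema3d, Nrp1 and Nrp2 in each array (points) of the 4 groups, with mean and SD as bars; open triangles are the 2 Nos3-/- arrays numbered 3. At day 11 the 6 Nos3-/- arrays lie at 9.63 to 10.87 for Sema3c, above all control arrays, and at 7.93 to 9.23 for Nrp2, below all of them.

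At day 0 the neuropilins were also lower in the Nos3-/- means. Nrp2 ran from 8.09 to 10.09 with a median of 9.11 in control and from 7.94 to 8.87 with a median of 8.37 in Nos3-/- iPSCs. The groups overlapped, and 3 of the 6 Nos3-/- arrays lay below every control array. The difference of -0.77 ± 0.27 was close to the threshold (adjusted p = 0.0494). In the omissions of a single array the adjusted p ran from 0.0225 to 0.146, and 21 of them ended the call. The Nrp2 call was also lost without both Nos3-/- arrays numbered 3. That fit is 1 of 9 among 12 other alternatives that ended it, and over the 12 the difference ran from -0.77 to -0.48. Nrp1 differed by -1.10 ± 0.44 without passing (adjusted p = 0.0824), and passed at -1.30 (adjusted p = 0.0110) without both Nos3-/- arrays numbered 3. Over time both rose in control, Nrp1 by 1.28 ± 0.39 (adjusted p = 0.0107) and Nrp2 by 1.00 ± 0.24 (adjusted p = 0.00180). In Nos3-/- the changes were 0.57 ± 0.49 (adjusted p = 0.392) and 0.37 ± 0.31 (adjusted p = 0.384). Without both arrays numbered 3, Nrp1 rose by 1.26 in Nos3-/- (adjusted p = 0.0241). With all arrays kept and array weights, it rose there by 1.15 (adjusted p = 0.0207). With all arrays at equal weight, the changes in control and Nos3-/- did not differ past the threshold for Nrp1 (-0.71 ± 0.62, adjusted p = 0.605) or Nrp2 (-0.64 ± 0.39, adjusted p = 0.416).

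**Figure D3:**
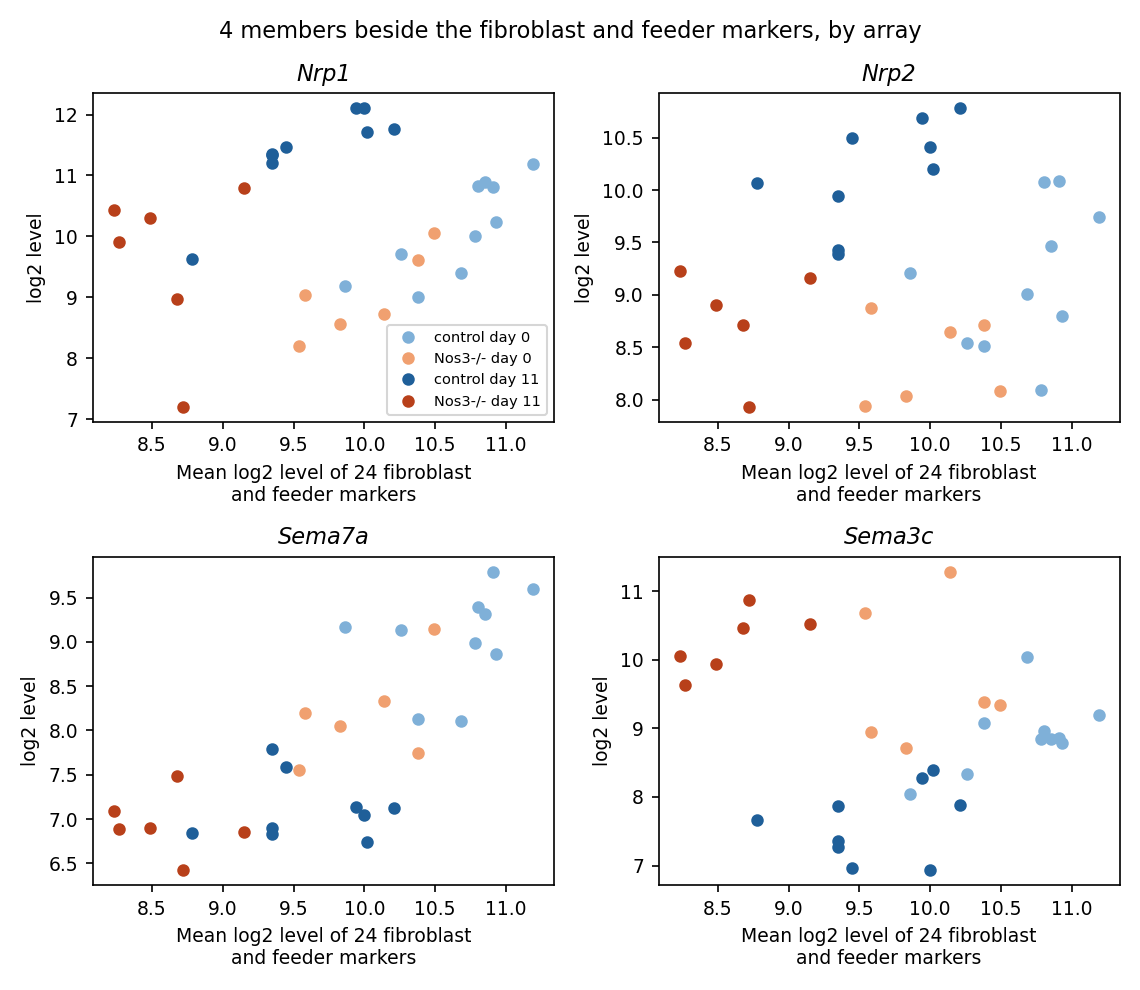
log2 level of Nrp1, Nrp2, Sema7a and Sema3c (vertical axes) against the mean log2 level of 24 fibroblast and feeder markers (horizontal axes), 1 point per array, coloured by group. Control embryoid bodies lie at marker means of 8.78 to 10.21 and Nos3-/- embryoid bodies at 8.23 to 9.15, and Sema3c is high in the group with the lowest marker means.

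Of the membrane-bound semaphorins, Sema6d and Sema7a were lower in Nos3-/- iPSCs and Sema4d was higher in Nos3-/- embryoid bodies. Sema6d, a class 6 ligand known to act through Plxna1 in the developing heart, ran from 8.58 to 10.44 with a median of 10.00 in control and from 6.59 to 10.58 with a median of 7.75 in Nos3-/- iPSCs. The Nos3-/- replicate 3 gave the 10.58, and the other 5 Nos3-/- arrays, at 6.59 to 8.17, all lay below the lowest control array. The difference was -1.78 ± 0.45, or 3.43-fold lower (adjusted p = 0.00734), and -2.28 (adjusted p = 6.10e-05) without both Nos3-/- arrays numbered 3. It passed in all 31 omissions of a single array. The 3 other Sema6d probe sets gave -0.18 to -0.56. In embryoid bodies the Sema6d means were 8.78 ± 0.97 in control and 8.54 ± 0.70 in Nos3-/-, and the difference of -0.24 ± 0.46 did not pass (adjusted p = 0.842).

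Over time Sema6d fell by 1.07 ± 0.40 on the log2 scale in control (adjusted p = 0.0367), a call that ended without control day 0 replicate 2, 3, 4, 7 or 8 or control day 11 replicate 1 or 3, with an adjusted p of at most 0.0915. In Nos3-/- its change was 0.47 ± 0.50 (adjusted p = 0.510), and 1.21 (adjusted p = 0.0304) without both arrays numbered 3. The difference between the changes was 1.54 ± 0.64 without passing (adjusted p = 0.216), and 2.28 (adjusted p = 0.0117) without these arrays.

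Sema7a, a ligand anchored to the membrane by a lipid that signals through Plxnc1 and integrins, had the largest fall of the 31 members over time in both genotypes. Its level at day 0 ran from 8.11 to 9.79 with a median of 9.15 in control and from 7.55 to 9.14 with a median of 8.12 in Nos3-/-. At day 11 it ran from 6.74 to 7.79 with a median of 7.04 in control and from 6.42 to 7.49 with a median of 6.89 in Nos3-/-. In both genotypes every day 11 array lay below every day 0 array. The fall was 1.94 ± 0.21, or 3.83-fold, in control (change -1.94, adjusted p = 1.99e-08), and the change in Nos3-/- was -1.23 ± 0.26, or 2.35-fold lower (adjusted p = 0.000793). Between genotypes it was lower in Nos3-/- iPSCs by -0.88 ± 0.23 (adjusted p = 0.0109), which leaving out Nos3-/- day 0 replicate 5 took to an adjusted p of 0.0514, and the day 11 difference of -0.17 ± 0.24 did not pass (adjusted p = 0.764). Beside this fall, 16 of 16 macrophage markers fell in control and 14 of 16 in Nos3-/-. Of 24 fibroblast and feeder markers, 14 fell and 4 rose in control, and 17 fell and 0 rose in Nos3-/-. Of all genes, 18.2% fell in control and 18.1% in Nos3-/-. The part of these cells in the fall of Sema7a was not tested. The second Sema7a probe set gave -0.53 in control and -0.20 in Nos3-/-.

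**Figure D4:**
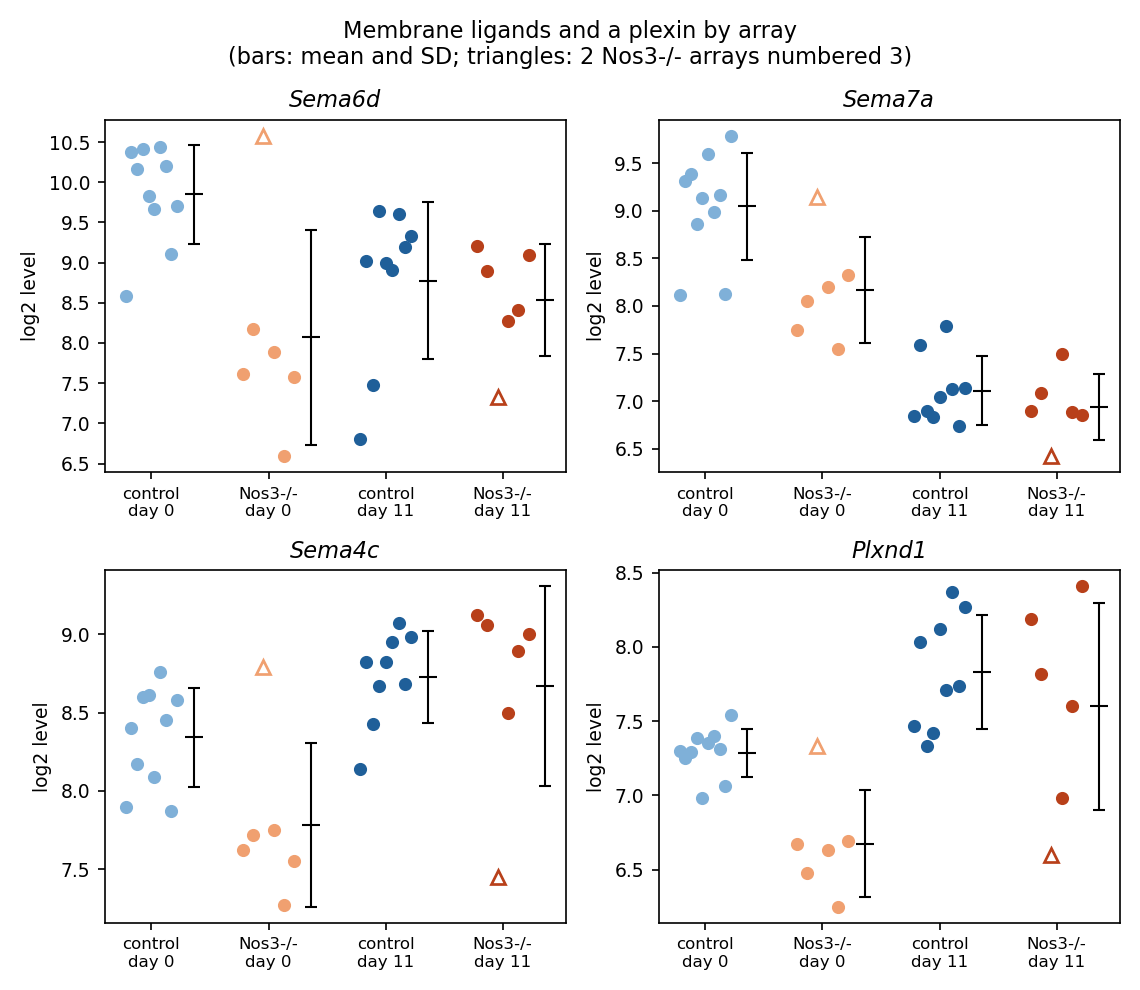
log2 level of Sema6d, Sema7a, Sema4c and Plxnd1 in each array (points) of the 4 groups, with mean and SD as bars; open triangles are the 2 Nos3-/- arrays numbered 3. For Sema6d the day 0 triangle lies at 10.58 and the other 5 Nos3-/- iPSC arrays at 6.59 to 8.17, and for Sema7a every day 11 array lies below every day 0 array of its genotype.

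Of the 6 class 4 ligands, Sema4d was the only one to pass between genotypes. Sema4d, also called CD100, binds Plxnb1 and acts in immune and endothelial cells. Its level at day 11 ran from 7.59 to 8.55 with a median of 7.97 in control and from 8.20 to 8.74 with a median of 8.56 in Nos3-/-. Control replicate 1, at 8.55, was the 1 control array within the Nos3-/- range, and the difference was 0.55 ± 0.15 (adjusted p = 0.0181). It was 0.10 (adjusted p = 0.804) with the fibroblast and feeder mean and 0.39 (adjusted p = 0.193) with the visceral endoderm mean as a covariate, and the 2 dimmer Sema4d probe sets gave 0.00 and 0.05. At day 0 the difference of 0.34 ± 0.15 did not pass (adjusted p = 0.113), and passed at 0.50 (adjusted p = 0.00746) without both arrays numbered 3. In control it fell by 0.39 ± 0.13 on the log2 scale over time (adjusted p = 0.0217), and leaving out control day 11 replicate 8 took this to an adjusted p of 0.0504.

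Other class 4 ligands moved with time. Sema4g, a little studied member, rose in both genotypes, by 0.84 ± 0.17 in control (adjusted p = 0.000294) and 0.61 ± 0.22 in Nos3-/- (adjusted p = 0.0310), the latter call being lost without Nos3-/- day 0 replicate 1, 4 or 6 or Nos3-/- day 11 replicate 1, 2 or 5, with an adjusted p of at most 0.0734. Sema4c, a ligand of Plxnb2, ran from 7.27 to 8.79 with a median of 7.67 in Nos3-/- iPSCs and from 7.45 to 9.12 with a median of 8.95 in Nos3-/- embryoid bodies. The 8.79 and the 7.45 both came from the arrays numbered 3, and the other 5 arrays of each day did not overlap. Sema4c rose by 0.89 ± 0.24 (adjusted p = 0.00568) with these arrays and by 1.33 (adjusted p = 1.98e-06) without them. Between genotypes at day 0 the difference of -0.56 ± 0.21 did not pass (adjusted p = 0.0687), and passed at -0.76 (adjusted p = 0.000421) without them. In control its change was 0.39 ± 0.19 (adjusted p = 0.117), which passed in that fit (adjusted p = 0.0156), and the difference between the changes was 0.50 ± 0.30 (adjusted p = 0.412), or 0.95 (adjusted p = 0.00903) without the arrays numbered 3. Sema4f fell by 0.26 ± 0.07 on the log2 scale in control (adjusted p = 0.00645), where its other probe set, an _x_at, gave -1.72. The Sema4f call was lost under quantile normalization (adjusted p = 0.0919). Sema4a did not pass. Sema4b, whose differences were 0.30 ± 0.20 between genotypes at day 0 and -0.49 ± 0.23 over time in Nos3-/-, did not pass either, and passed without both arrays numbered 3, at 0.55 (adjusted p = 0.0124) and -0.65 (adjusted p = 0.00822).

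Of the class 5 and 6 ligands other than Sema6d, Sema5a changed most. Sema5a, a membrane ligand with thrombospondin repeats, rose by 1.04 ± 0.23, or 2.06-fold, in control (adjusted p = 0.000577) and by 0.73 ± 0.28 in Nos3-/- (adjusted p = 0.0479). Its level ran from 5.02 to 6.82 with a median of 5.27 in control iPSCs and from 5.59 to 7.08 with a median of 6.40 in control embryoid bodies. The groups overlapped through control day 0 replicate 10, at 6.82, since the other 9 iPSC arrays lay at 5.64 or below. In Nos3-/- the call was lost in 21 of the 31 omissions, with an adjusted p of at most 0.120. It was also lost when only the arrays of the groups compared were fitted, and when the Sema5a probe sets were averaged (0.13, adjusted p = 0.577). The other Sema5a probe sets gave -0.31, 0.23 and -0.15 over time in Nos3-/-, and 0.17, 0.80 and -0.07 in control. Sema5b rose by 0.32 ± 0.11 (adjusted p = 0.0334) and Sema6a, a ligand of Plxna2 and Plxna4, by 0.68 ± 0.26 (adjusted p = 0.0442) in Nos3-/-. The Sema5b call was lost without Nos3-/- day 0 replicate 2, 4 or 5 or Nos3-/- day 11 replicate 3, with an adjusted p of at most 0.104, and without the last of these arrays the change was 0.17. The Sema6a call was lost without Nos3-/- day 0 replicate 1, 2, 5 or 6 or Nos3-/- day 11 replicate 1, 2, 4 or 6, with an adjusted p of at most 0.108. Both calls were also lost when the probe sets of a gene were averaged and when only the arrays of the groups compared were fitted. The other Sema6a probe sets gave -0.03 and 0.20 over time in Nos3-/-. The changes of Sema5b and Sema6a in control were 0.14 ± 0.09 and -0.05 ± 0.20. Sema6c had no overlap over time in Nos3-/-, from a mean of 8.30 to 8.11, yet the change of -0.19 ± 0.08 did not pass (adjusted p = 0.0572).

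Among the 9 plexins, 2 were lower in Nos3-/- iPSCs, none passed between genotypes in embryoid bodies, and 2 rose over time in control and 5 in Nos3-/-. Plxnd1, the receptor of Sema3e in vessels, ran from 6.98 to 7.54 with a median of 7.30 in control and from 6.25 to 7.33 with a median of 6.65 in Nos3-/- iPSCs. Nos3-/- replicate 3 gave the 7.33, and the other 5 lay between 6.25 and 6.69, below every control array. The difference was -0.61 ± 0.20 (adjusted p = 0.0367), or -0.74 (adjusted p = 0.00249) without both arrays numbered 3. It was lost without any of the other 5 Nos3-/- day 0 arrays or without control day 0 replicate 3, 4, 6, 7 or 10, with an adjusted p of at most 0.127. Over time Plxnd1 rose by 0.54 ± 0.18 in control (adjusted p = 0.0199) and by 0.93 ± 0.23, or 1.90-fold, in Nos3-/- (adjusted p = 0.00281).

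Plxna1, a partner of neuropilins and the receptor of Sema6d, was lower in Nos3-/- iPSCs by -0.33 ± 0.11 (adjusted p = 0.0385), and rose by 0.49 ± 0.12 in Nos3-/- (adjusted p = 0.00345), where the days did not overlap. The day 0 call was lost without Nos3-/- day 0 replicate 2, 5 or 6 or control day 0 replicate 2, 3, 6 or 10, with an adjusted p of at most 0.127, and under quantile normalization (adjusted p = 0.0593). Its change in control was 0.10 ± 0.10 (adjusted p = 0.470). The second Plxna1 probe set gave -0.11 over time in Nos3-/-, and with both averaged neither call held, the rise being 0.19 (adjusted p = 0.0609) and the day 0 difference -0.17 (adjusted p = 0.0940). Plxnb2, the receptor of Sema4c and Sema4g, rose in both genotypes, by 0.37 ± 0.11 in control (adjusted p = 0.00671) and 0.82 ± 0.13 in Nos3-/- (adjusted p = 4.52e-05). In Nos3-/- its 6 day 0 arrays lay between 9.07 and 9.63 and its 6 day 11 arrays between 9.92 and 10.45, with no overlap. Plxna2, a receptor of Sema6a, rose by 0.95 ± 0.33 (adjusted p = 0.0284) and Plxnb1, the receptor of Sema4d, by 0.42 ± 0.12 (adjusted p = 0.00801) in Nos3-/-. The Plxna2 call was lost without Nos3-/- day 0 replicate 5 or 6 or Nos3-/- day 11 replicate 1, 2 or 6, with an adjusted p of at most 0.0928. In control the values were 0.51 ± 0.26 for Plxna2 (adjusted p = 0.135) and -0.11 ± 0.09 for Plxnb1 (adjusted p = 0.408).

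Without both Nos3-/- arrays numbered 3, more plexins passed. At day 0 Plxna2 was lower at -0.98 (adjusted p = 0.00640), Plxnb1 at -0.29 (adjusted p = 0.0265) and Plxnb2 at -0.35 (adjusted p = 0.0347), against -0.75, -0.25 and -0.32 with them. At day 11 Plxnb1 was higher in Nos3-/- at 0.38 (adjusted p = 0.00941), against 0.28 ± 0.11 with them (adjusted p = 0.104), and it also passed with array weights and under quantile normalization. Plxna3 rose by 0.35 in Nos3-/- (adjusted p = 0.0382), against 0.25 with them.

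The plexins' differences between genotypes in the change over time were above 0 for 8 of 9, with a median of 0.39 against -0.02 for all genes, and none passed. Plxnb1 came nearest at 0.53 ± 0.15 (adjusted p = 0.0767), and passed at 0.67 (adjusted p = 0.00523) without both Nos3-/- arrays numbered 3. With all arrays and 1 probe set per gene, Plxna3, Plxna4, Plxnb3 and Plxnc1 passed in no comparison. Plxna4 and Plxnb3 had means within 6.24 to 6.29 and 6.56 to 6.70 over the 4 groups. The second, dimmer Plxna4 probe set gave -0.40 between genotypes at day 11 and 0.37 over time in control. With both averaged, Plxna4 passed in these comparisons, at -0.20 (adjusted p = 0.0301) and 0.20 (adjusted p = 0.00315). Plxnc1, the receptor of Sema7a, had means from 5.70 to 6.09, with control embryoid body replicate 7 alone at 7.27.

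Comparing the genotypes over time, which share no arrays, 7 members passed in both: Sema3b, Sema3d, Sema4g, Sema5a, Plxnb2 and Plxnd1, which rose, and Sema7a, which fell. These are 50.0% of the 14 in either genotype, against 52.7% of the genes passing in control and 58.0% of those in Nos3-/- over all genes. The genotype comparisons at day 0 and day 11, which also share no arrays, had Nrp2 in common, lower in both, which is 20.0% of the 5 on either day, against 22.6% and 38.8% over all genes. The 2 members whose change over time differed between genotypes were Sema3c and Sema3d. Leaving out 1 array gave 0 such members without Nos3-/- day 0 replicate 2 or Nos3-/- day 11 replicate 1, 4 without Nos3-/- day 0 replicate 3, and 1 in 16 other omissions, and leaving out both Nos3-/- arrays numbered 3 gave 5.

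**Figure D5:**
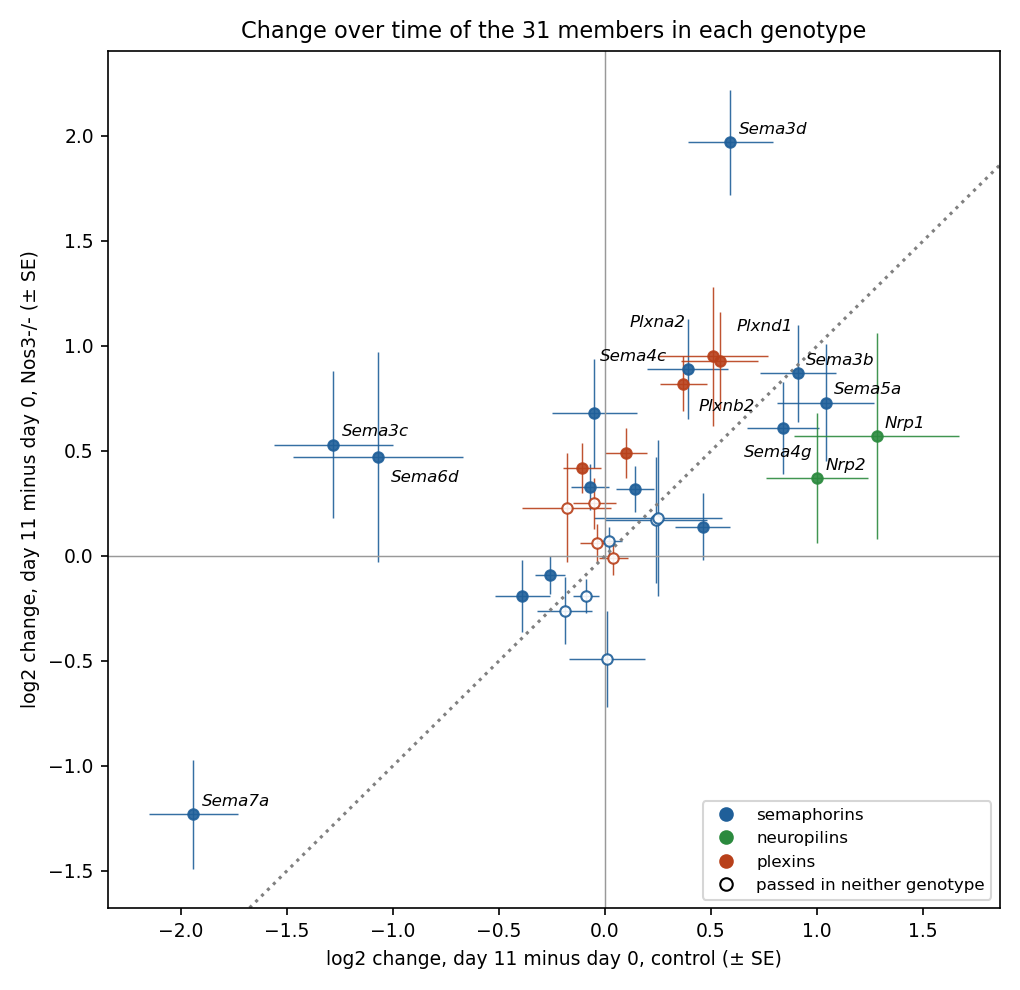
log2 change from day 0 to day 11 in control (horizontal) and in Nos3-/- (vertical) for the 31 members, with SE bars; the dotted line marks equal change and open points passed in neither genotype. Sema3c lies at -1.28 in control and 0.53 in Nos3-/-, Sema3d at 0.59 and 1.97, and Sema7a at -1.94 and -1.23.

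A list of 56 co-receptors, ligands shared with other pathways and intracellular mediators, 54 of them measured, is set beside the members. At day 0, 7 of 54 were lower and 0 higher in Nos3-/-, with a median change of -0.19 against 0.01 for all genes, of which 16.6% passed. The lowest were the VEGF receptor Flt1 at -1.48 ± 0.34 (adjusted p = 0.00412) and the collapsin response mediators Dpysl3, 2.00-fold lower (adjusted p = 0.00302), and Crmp1 at -0.82 ± 0.22 (adjusted p = 0.0113), which relay Sema3a signals to the cytoskeleton. At day 11, when 9.70% of all genes passed, 1 was higher, the phosphatase Ptprf at 0.45 ± 0.11 (adjusted p = 0.00479), and 2 were lower, Sh3bp1 at -0.39 ± 0.12 (adjusted p = 0.0331) and the cofilin kinase Limk1 at -0.33 ± 0.09 (adjusted p = 0.0143).

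Over time 12 of 54 rose and 15 fell in control, and 15 rose and 10 fell in Nos3-/-, where 34.2% and 31.1% of all genes passed. The VEGF receptor Kdr, which pairs with neuropilins, rose by 1.87 ± 0.29 in control (adjusted p = 8.45e-06) and by 1.61 ± 0.36 in Nos3-/- (adjusted p = 0.00136). Tyrobp, an adaptor of myeloid cells that also serves the Sema6d receptor complex, had the largest fall, with changes of -2.29 ± 0.42 (adjusted p = 9.30e-05) and -3.32 ± 0.53 (adjusted p = 3.92e-05), and it is also 1 of the 16 macrophage markers. The difference between genotypes in the change over time passed for 3 higher and 1 lower, and for 1.24% of all genes: Dpysl3 at 1.31 ± 0.32 (adjusted p = 0.0351), Crmp1 at 1.24 ± 0.31 (adjusted p = 0.0424), the receptor kinase Met at 0.91 ± 0.22 (adjusted p = 0.0363) and Sh3bp1 at -0.66 ± 0.17 (adjusted p = 0.0433). Cfl1, an actin-severing protein and the mediator of highest level, passed in no comparison, and Rap1b, a small GTPase next in level, changed by -0.29 ± 0.09 over time in Nos3-/- (adjusted p = 0.0149).

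The number of members passing at day 0 moved with single arrays and with the fibroblast and feeder markers. Of these markers 9 of 24 were lower in Nos3-/- iPSCs and 0 higher, with a median change of -0.62, and their mean ran from 9.86 to 11.19 in control and from 9.54 to 10.49 in Nos3-/-. With that mean as a covariate among the 16 day 0 arrays, 0 members passed, as did 1.32% of all genes, with Sema6d at -1.20 (adjusted p = 0.529) and Sema7a at -0.49 (adjusted p = 0.721). Without both Nos3-/- arrays numbered 3, 12 members passed, 9 lower and 3 higher, and 25.7% of all genes. Leaving out 1 array gave 10 members without Nos3-/- day 0 replicate 3 (22.8% of all genes) or control day 0 replicate 1 (18.4%), and 9 without Nos3-/- day 11 replicate 3 (19.6%). It gave 3 without Nos3-/- day 0 replicate 2 (11.1%) or 6 (11.6%) or control day 0 replicate 2 (13.5%), 2 without control day 0 replicate 3, 6 or 10 (13.4% to 13.5%), and 1 without Nos3-/- day 0 replicate 5 (8.09%). The share of all genes that passed thus moved in the same direction as the members in each of these fits. The part of feeder cells in these differences was not tested.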

How the data were processed

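RNA of 31 samples was hybridized to 1 Affymetrix array each, per the labels' protocols. The authors deposited log2 values for 45101 probe sets, summarized with RMA per the submitters' processing notes; no version is given. RMA removes background, quantile-normalizes and summarizes probes, so a change common to all genes would not show. Values run from 2.32 to 15.01, with array medians from 6.13 to 6.23. The number of arrays limits the precision.

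Symbols came from the platform table: 34958 probe sets name 1 gene, 932 several and 9211 none, and the highest probe set per gene left 18194 genes. Limma 3.58.1 in R 4.3.3 fitted 4 group means and tested 5 comparisons, with 27 residual and 2.80 prior degrees of freedom, no pairing or batch term and no filter on low levels. No level is compared between probe sets. The fit was tested on simulated data. Alternatives changed the normalization, centring, filter, probe set choice, variance model, weights, arrays fitted, pairing and covariates. The labels do not say whether replicate numbers in the titles pair samples. Of 27 same-number pairs, 9 had deviations correlated above 0.1 (range -0.27 to 0.35). Pairs with different numbers were not compared, so this check cannot settle whether samples are paired.

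The members, lists and comparisons were chosen with earlier results of these data known. Every member may be named. Of the partner list, up to 4 passing genes a direction and 3 of highest level are named. Of the marker lists, only means and counts are given. Figures were drawn with matplotlib 3.10.9.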

Additional observations from a re-analysis of the deposited data

Results flagged for a closer look

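In 13 of 124 pairs of a member and a group, 1 array lay apart from the rest of its group by Dixon's criterion, which chance meets in about 1 of 20 groups. Nos3-/- replicate 3 at day 11 was the array apart 4 times: lowest for Plxna2 at 6.17 (others 7.44 to 7.85) and Sema4c at 7.45 (8.50 to 9.12), and highest for Sema3e at 10.52 (8.44 to 8.94) and Sema5b at 7.20 (6.30 to 6.43). At day 0, Nos3-/- replicate 3 was highest for Sema4c at 8.79 (7.27 to 7.75). Control day 0 replicate 10 was highest for Plxnb2 at 10.28 (9.40 to 9.77), Sema3b at 6.97 (5.67 to 6.27) and Sema5a at 6.82 (5.02 to 5.64), and control day 0 replicate 9 for Sema4d at 8.93 (8.11 to 8.50). Among control embryoid bodies, replicate 1 was lowest for Nrp1 at 9.63 (11.20 to 12.10), replicate 3 lowest for Sema6c at 7.65 (7.98 to 8.29), replicate 6 highest for Sema4f at 6.64 (6.22 to 6.43) and replicate 7 highest for Plxnc1 at 7.27 (5.20 to 6.23).

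The change over time differed between genotypes for Sema3c by 1.80 (adjusted p = 0.0418, limma) and for Sema3d by 1.38 (adjusted p = 0.0267).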

How the results depend on the processing

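Of the changes that passed, none turned its direction under the alternatives run on it; for changes that did not pass this was not tallied. Between genotypes at day 0, 5 members passed, against 11 with array weights (22.5% of all genes), 0 with the fibroblast and feeder mean as a covariate (1.32%), and 1 to 10 with 1 array left out. At day 11, 5 passed, against 2 with the visceral endoderm mean as a covariate (4.29%), 2 with the fibroblast and feeder mean (1.84%), and 5 to 6 with 1 array left out. Over time, 14 passed in control, against 7 when genes under the median level were left out (42.2%), which leaves 15 members tested, and 13 to 14 with 1 array left out. In Nos3-/-, 14 passed, against 6 under that filter (41.3%), 8 when only the arrays of the groups compared entered the fit (20.2%), and 10 to 15 with 1 array left out. For the difference in change over time, 2 passed, against 1 without genes under the lower tertile (2.09%), 1 without those under the median (2.11%), 1 when all probe sets of a gene were averaged (1.18%), 6 with array weights (8.74%), and 0 to 4 with 1 array left out. Without the 2 arrays that stand apart, an alternative chosen after seeing the data like the fibroblast covariate at day 11, 12 members passed at day 0 (25.7%) and 5 for the difference in change over time (7.23%). With replicate number as a block (replicate block), 2 members passed between genotypes at day 0, 5 members at day 11, 13 when control cells were followed in time, 12 when Nos3-/- cells were, and 0 in the comparison of these changes, with Sema3c at adjusted p = 0.0728 and Sema3d at 0.0661 in limma; all-gene shares were 11.6%, 7.82%, 33.4%, 30.7% and 0.907%. The cause of these moves was not tested, except that fewer members and fewer arrays enter some of them. Dim members carry little signal over background: 5 of 31 lay under the lower tertile of mean level. They are Sema3d, Sema3g, Sema4a, Sema5a and Plxnc1.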

Other observations

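Sema3d, Sema3a, Sema3e, Sema3c and Nos3 lie on chromosome 5 in this order in the RefSeq table. Between Sema3d and Sema3a lie 0 protein-coding genes, between Sema3a and Sema3e 3, between Sema3e and Sema3c 15, and between Sema3c and Nos3 35. Of the 53 other genes from Sema3d to Nos3, 34 were measured. In Nos3-/- iPSCs 7 of these passed (20.6%), 6 higher and 1 lower, against 16.6% of all genes, and in Nos3-/- embryoid bodies 6 passed (17.6%), 2 higher and 4 lower, against 9.70% of all genes. The interval was chosen after the values of Sema3c and Sema3d were seen, and these counts were not tested.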
